A study of Mus musculus with 8 samples.

Results

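Chemokines and their receptors were followed in the lungs of untreated wild-type and Scgb3a2-transgenic mice. The members were all probes whose gene symbol in the annotated matrix starts with Ccl, Cxcl, Xcl, Cx3cl, Ccr, Cxcr, Xcr or Cx3cr and a digit, which gave 70 of 41174 probes on the array, for 55 genes. The ligands were 35 genes with 43 probes and the receptors 20 genes with 27 probes. One receptor on the list, Cxcr7, is named Ackr3 in RefSeq. Both groups were male C57BL/6 mice without treatment, 8 to 10 weeks old by the sample labels and approximately 8 weeks old by the methods, with 4 mice in each. The transgenic mice carried a mouse Scgb3a2 cDNA under the human surfactant protein C promoter, which is active in alveolar type II cells, and came from 1 founder line. The wild-type mice carried no transgene. RNA was isolated from each lung on its own and labeled with Cy5, and a pool described as made of equal parts of the sample RNAs was labeled with Cy3 and hybridized on all 8 arrays. No array had the dyes swapped, so the RNA source and the dye cannot be told apart in any ratio to the pool. By the methods each sample gave an equal amount to the pool, and no separate list of its samples is given there. Equal parts of these 8 lungs alone could not lie above every one of them, so a ratio below 0 on all 8 arrays is not a level of the lungs against their own average, and the make-up of the pool, the dye and the lung RNA cannot be told apart in it.

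Chemokines are small secreted proteins that direct the migration of leukocytes along a concentration gradient. They bind receptors that span the membrane and are coupled to inhibitory G proteins, whereas atypical receptors take up the ligand without this signal. Homeostatic chemokines place lymphocytes and dendritic cells in lymphoid tissue, and inflammatory chemokines are made by epithelium, macrophages and stroma after injury or infection. In the lung, CC ligands of the Ccl2 type call in monocytes, CXC ligands of the Cxcl1 type call in neutrophils, and the interferon-inducible CXC ligands call in T cells and natural killer cells.

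Scgb3a2 itself was at a log2 ratio of -0.091 ± 0.51 in wild-type and 0.79 ± 0.33 in transgenic lungs (SD, n = 4 each), 1.84-fold higher by limma (unadjusted p = 0.00330, adjusted p = 1.00), and the groups overlapped. All 6 lung epithelial marker probes were well above background on every array. Array means of marker probes were taken over the probes with a value on every array. The mean log2 ratio of the 8 such neutrophil marker probes was 0.64 on transgenic replicate 1 and between -2.13 and -0.083 on the other arrays, and this array also had the lowest mean of the lung epithelial markers, -0.48 against -0.024 to 0.85 elsewhere over the 3 probes Sftpd, Ager and Sftpa1. The 4 slides, scanned over 2 days, held an array of each genotype apiece. No spot was saturated.

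Of the 70 member probes, 54 had a mouse lung signal well above background on all 8 arrays, 12 on some and 4 on none. The ligands accounted for 31, 9 and 3 of these and the receptors for 23, 3 and 1. Never above background in a mouse lung were Ccl22 and Cxcl11, the neutrophil attractant Cxcl3 and the dimmer of the 2 probes of Ccr4. In RefSeq Cxcl11 is annotated as a transcribed pseudogene in this strain. The pool channel was above background for Ccl22 on 5 arrays, for Cxcl11 on 6 and for Cxcl3 on 4, and no fold is given for them. The other probes with few measured samples were Ccl3 on 1 array, Cxcl9, Cxcr1 and Ccr8 on 2 each, Cxcl2 and Cxcl2's relative Cxcl5 on 4 and 5, Ccl20 on 5, and Ccl4 and Cxcl10 on 6 each. Ccl3 and Ccr8 were well above background in wild-type lungs only, on 1 and 2 arrays. Their net Cy5 signals were low in both genotypes, 10 to 23 and 11.5 to 22 over all arrays. This is therefore not read as a difference between the genotypes.

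Several inflammatory chemokines and chemokine receptors were far lower in the lungs than in the pool. The monocyte attractant Ccl7, the CC ligand Ccl8 and the T cell attractant Ccl17 lay 3.78-fold to 4.04-fold below it on average, each below it on all 8 arrays. Ccl12 and Cxcl10 were also below it on all 8 arrays, but their dim sample spots gave mean log2 ratios of -2.88 to -1.54 and -3.87 to -1.24 over the alternatives. A smaller set was above the pool, led by the brighter probe of the neutrophil receptor Cxcr2, whose dimmer probe was at -0.30, and by the dendritic cell receptor Xcr1, and none of the member probes was 2-fold above it. The mean of the 2 genotype means was tested against 0 with limma for the 69 member probes above background in either channel on at least 4 arrays, with adjustment over all 33651 probes tested. Below the pool at an adjusted p under 0.05 were 34 member probes (49.3%), while 28.2% of all probes tested were below. Above it were 15 (21.7%), against 28.7% of all probes. At least 2-fold below the pool were 14 member probes (20.3%), against 1.2% of all probes, and at least 2-fold above it were 0, against 1.69% of all probes. Of the 34 probes below, those of Ccl22, Cxcl3, Ccl3, Cxcl9 and Ccr8 were well above background on at least 4 arrays in the pool channel alone, so nothing is read from their calls. With the filter on the sample channel 29 of 62 member probes were below (46.8%, against 28% of all probes), 14 above (against 29.5%) and 14 at least 2-fold below (against 1.23%). The 2-fold size was chosen after the values had been seen. The median log2 ratio was -0.22 over the ligand probes, 0.017 over the receptor probes and -0.00050 over all probes. In whole lung, fewer cells of a type and less RNA per cell cannot be told apart. The offset of 50 added at background correction pulls the ratios of dim probes toward 0. With Agilent's processed signals 27 member probes were at least 2-fold below the pool, against 3.78% of all probes. In that setting the mean log2 ratio was -2.46 for Cxcl13, -1.68 for Ccl4, -1.04 for Ccl1, -1.05 for Xcl1, -3.88 for the dimmer Ccl7 probe and -2.34 for the dimmer Cxcl12 probe, each over 1.5-fold further from the pool than the values given below for them.

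**Figure D1:**
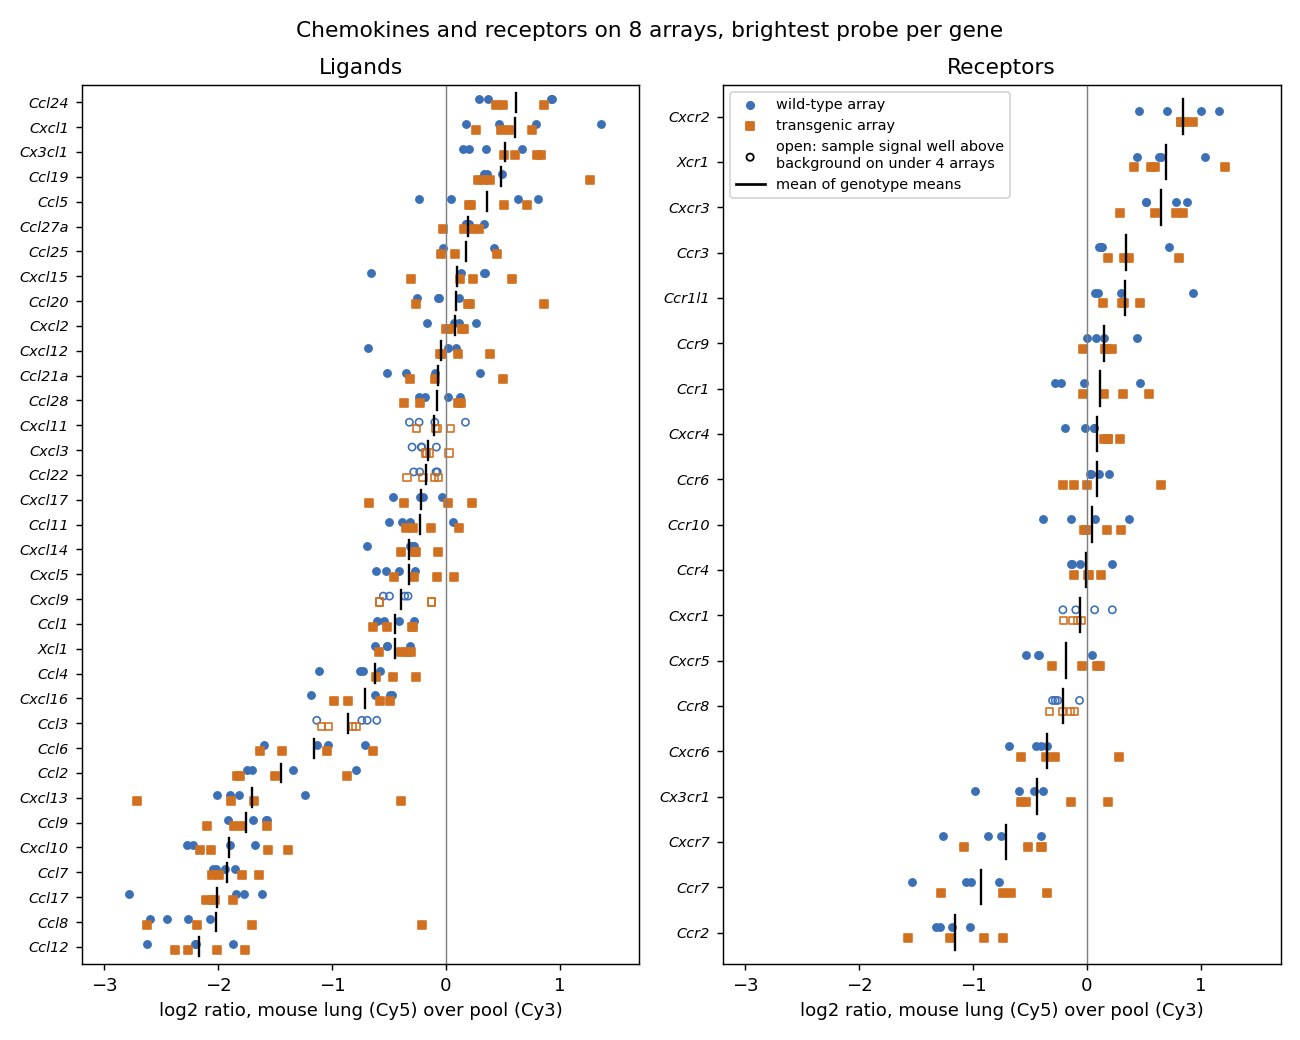
The log2 ratio of mouse lung over pool on the horizontal axis is plotted for the brightest probe of each of the 35 ligands and 19 of the receptors, with 4 wild-type arrays as circles, 4 transgenic arrays as squares, open symbols where the sample signal was well above background on fewer than 4 arrays, and a black line at the mean of the genotype means. From Ccr2 and Ccl12 at the bottom to Cxcr2 and Ccl24 at the top, most genes have the 2 genotypes intermingled.

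**Figure D2:**
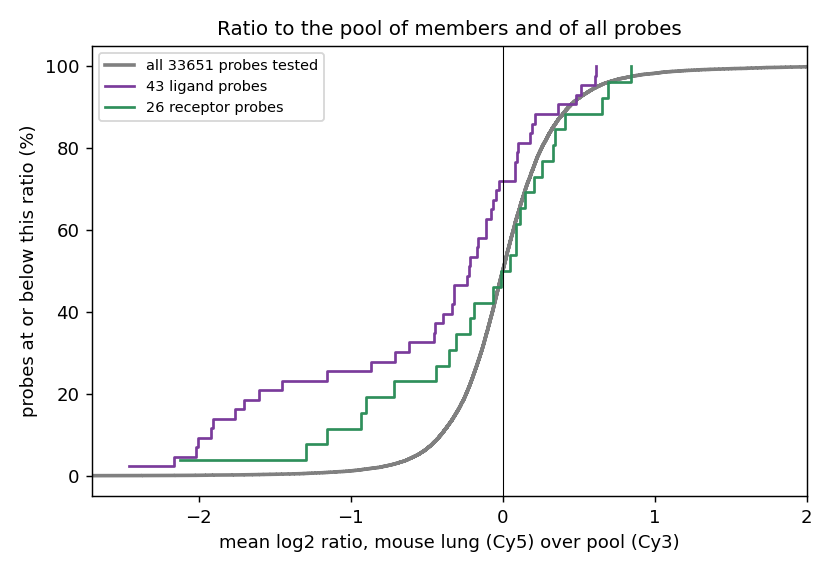
The curves give the percentage of probes at or below each mean log2 ratio to the pool, for all 33651 probes tested, the 43 ligand probes and the 26 receptor probes tested. The ligand curve lies above that of all probes through most of the range below 0, and no member reaches a ratio of 1.

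Upstream sequences were read from RefSeq (GRCm38.p6), which held the 250 bases before the gene start of 41 of the 55 member genes. The 5 printed show where the letters searched lie in members that were far from the pool and in their relatives. Searched on both strands were GGANTTTCC, a form of the NF-kB site, GAAANNGAA, a form of the interferon-response element, and TATAAAA, a form of the TATA box. The first was in 5 of the 41 member genes (Cxcl1, Cxcl2, Cxcl3, Cxcl10 and Ccr3) and in 1.07% of all 32851 upstream windows, the second in 8 (among them Cxcl9, Cxcl10, Ccl19 and Ccr2) and in 7.13% of all, and the third in 7 (among them Ccl8, Ccl9 and Ccl12) and in 4.98% of all. In the windows printed no motif's match overlapped another's. A match is a description of the letters and not evidence of a site. In the first 3 sequences the capitals mark the NF-kB form, 70, 96 and 158 bases before the gene start, and in the last 2 the TATA form, 31 and 32 bases before it. Cxcl1 (chr5:90890995-90891244 on the plus strand) and Cxcl2 (chr5:90903649-90903898 on the plus strand) were at 0.61 and 0.079 relative to the pool, and Cxcl10 (chr5:92348890-92349139 on the minus strand) at -1.90. Ccl12 (chr11:82101595-82101844 on the plus strand) and Ccl8 (chr11:82114935-82115184 on the plus strand), which are neighbours, were both low. All are written 5′ to 3′ on the gene's strand.
Cxcl1: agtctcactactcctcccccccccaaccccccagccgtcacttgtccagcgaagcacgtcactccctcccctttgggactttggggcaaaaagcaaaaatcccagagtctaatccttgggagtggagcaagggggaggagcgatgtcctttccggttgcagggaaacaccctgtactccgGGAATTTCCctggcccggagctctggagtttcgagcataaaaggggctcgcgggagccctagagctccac
Cxcl2: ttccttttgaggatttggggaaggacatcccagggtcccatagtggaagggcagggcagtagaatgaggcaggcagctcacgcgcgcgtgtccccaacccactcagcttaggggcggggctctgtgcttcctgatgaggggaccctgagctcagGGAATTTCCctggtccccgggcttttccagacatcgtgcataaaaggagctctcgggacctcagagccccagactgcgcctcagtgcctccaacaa
Cxcl10: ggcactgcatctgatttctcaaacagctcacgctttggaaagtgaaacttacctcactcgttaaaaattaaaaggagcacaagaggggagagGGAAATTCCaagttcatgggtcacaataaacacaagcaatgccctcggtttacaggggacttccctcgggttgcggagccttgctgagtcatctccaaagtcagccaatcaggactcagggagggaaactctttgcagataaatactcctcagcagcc
Ccl12: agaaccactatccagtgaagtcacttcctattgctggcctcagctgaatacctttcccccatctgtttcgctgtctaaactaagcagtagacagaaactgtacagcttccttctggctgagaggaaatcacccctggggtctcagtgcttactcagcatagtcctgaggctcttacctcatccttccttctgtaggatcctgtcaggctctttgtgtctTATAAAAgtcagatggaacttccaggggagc
Ccl8: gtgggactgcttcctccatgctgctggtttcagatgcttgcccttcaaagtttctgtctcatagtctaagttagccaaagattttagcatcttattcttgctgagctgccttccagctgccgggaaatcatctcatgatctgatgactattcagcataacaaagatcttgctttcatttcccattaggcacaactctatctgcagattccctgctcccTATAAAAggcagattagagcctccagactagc

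The ligands of the monocyte receptor Ccr2 were among the lowest members. Ccl12 had log2 ratios of -2.20, -1.87, -2.63 and -2.20 on the wild-type arrays and -1.77, -2.01, -2.27 and -2.38 on the transgenic arrays. Each of the 8 values was -1.77 or lower, and the mean was -2.16 ± 0.087 (SE, adjusted p = 1.85e-08). The same probe had a net Cy5 signal of 56.5 to 152 against a net Cy3 signal of 439 to 758. Ccl7 was at -2.05, -1.86, -1.94 and -2.02 on the wild-type arrays and -1.64, -1.79, -2.06 and -1.99 on the transgenic arrays, with a mean of -1.92 ± 0.057 (SE, adjusted p = 5.78e-09), and its dimmer probe had a mean of -2.45. Ccl2, the best known ligand of this receptor, was at -0.79, -1.75, -1.34 and -1.70 on the wild-type arrays and -0.87, -1.81, -1.83 and -1.50 on the transgenic arrays. Its 2 highest arrays were the first replicates of each genotype, and the mean was -1.45 ± 0.12 (SE, adjusted p = 3.39e-06). Ccl8, a CC ligand whose gene neighbours Ccl12, was at -2.27, -2.07, -2.45 and -2.60 on the wild-type arrays and -0.21, -1.70, -2.19 and -2.62 on the transgenic arrays. Transgenic replicate 1 stood near the pool while the other 7 arrays were at -1.70 or lower, and the mean was -2.02 ± 0.20 (SE, adjusted p = 1.11e-05). Ccr2 itself had a mean of -1.16 ± 0.083 (SE, adjusted p = 9.10e-07) with the brighter probe and -1.29 with the other, and both probes were below the pool on all 8 arrays. Of the macrophage marker probes 8 of 11 tested were also below the pool, beside 28.2% of all probes, with a median of -0.70. Their array means were -0.70 to -0.51 in wild-type and -0.80 to -0.38 in transgenic lungs, and their part in these ratios was not tested.

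Of Ccl3, Ccl4 and Ccl5, which attract macrophages and T cells, Ccl3 was well above background in 1 sample and is given no ratio. Ccl4 had a mean of -0.62 ± 0.073 (SE, adjusted p = 6.15e-05), whereas Ccl5 was above the pool at 0.36 ± 0.11 (SE, adjusted p = 0.0146). With median-centring in place of loess, Ccl5 no longer passed. The second probe of Ccl5 was at 0.080 (adjusted p = 0.625). Ccr1, which binds Ccl3 and Ccl5 on myeloid cells, was at 0.11 (adjusted p = 0.288) and its relative Ccr1l1 at 0.33 (adjusted p = 0.00778). Ccl9 and Ccl6, ligands of Ccr1 made by macrophages and found in rodents, were below the pool on all 8 arrays. Ccl9 had log2 ratios between -2.10 and -1.57 and a mean of -1.76 ± 0.065 (SE, adjusted p = 1.31e-08). Ccl6 lay between -1.63 and -0.64, with a mean of -1.15 ± 0.11 (SE, adjusted p = 9.63e-06) and a net Cy5 signal of 5569.5 to 16859.5 against a net Cy3 signal of 15717 to 28099.

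Among the inflammatory CC ligands as a group, 13 of 18 probes were below the pool, 2 above it and 3 did not pass, with a median of -0.74, beside 28.2% of all probes below and 28.7% above. The 13 include Ccl22 and Ccl3, which passed the filter through the pool channel. Ccl17, made by dendritic cells and a ligand of Ccr4, was at -1.84, -1.77, -1.61 and -2.78 on the wild-type arrays and -2.11, -1.87, -2.05 and -2.03 on the transgenic arrays, and the mean was -2.01 ± 0.11 (SE, adjusted p = 1.01e-07). Wild-type replicate 4 was the lowest, and the transgenic values were close together. Ccr4 was at -0.011 (adjusted p = 0.877) with the probe that could be tested. Eosinophil attractants differed, with Ccl11 at -0.22 (adjusted p = 0.0199), a call lost in 6 of 22 alternatives, and Ccl24 at 0.61 (adjusted p = 3.26e-04) with 1 probe and -0.11 (adjusted p = 0.313) with the other. Their receptor Ccr3 was above the pool with both probes, at 0.35 and 0.20 (adjusted p = 0.00485 and 0.00511). The call of the brighter probe was lost in 2 of 22 alternatives, and the dimmer probe was at 1.49 with Agilent's processed signals. Ccl1, a ligand of Ccr8, had a mean of -0.45 (adjusted p = 8.03e-05), and Ccr8 was well above background in only 2 samples. Ccl20, which attracts Ccr6-bearing cells to mucosa, was at 0.091 and Ccr6 at 0.086 (adjusted p = 0.450 and 0.401), and both were highest on transgenic replicate 1.

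Of the 3 interferon-inducible ligands, Cxcl10 was the only one measured in enough samples to be read against the pool, since Cxcl9 was well above background in 2 samples and Cxcl11 in none. Cxcl10 was at -2.28, -1.90, -2.22 and -1.67 on the wild-type arrays and -1.56, -1.39, -2.06 and -2.16 on the transgenic arrays. The groups overlapped and all 8 arrays were at -1.39 or lower, with a mean of -1.90 ± 0.096 (SE, adjusted p = 6.63e-08). The spot had a net Cy5 signal of 10.0 to 42.5 against a net Cy3 signal of 221 to 409, so that the fold depends on the treatment of background, and with Agilent's processed signals the mean log2 ratio was -3.87. The same setting gave -2.88 for Ccl12 and -2.03 for the brighter Ccl17. The receptor that these ligands share, Cxcr3, on activated T cells and natural killer cells, stood on the other side of the pool. It was at 0.78, 0.52, 0.88 and 0.52 on the wild-type arrays and 0.29, 0.60, 0.78 and 0.84 on the transgenic arrays, above the pool on all 8 arrays, with a mean of 0.65 ± 0.070 (SE, adjusted p = 2.01e-05). The natural killer cell marker probes were above the pool in 5 of 6 cases, with a median of 0.40. Of the T cell marker probes 3 of 13 were above and 6 below, with a median of -0.17. Among all probes 28.7% were above and 28.2% below. The part of these markers in the Cxcr3 ratio was not tested.

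**Figure D3:**
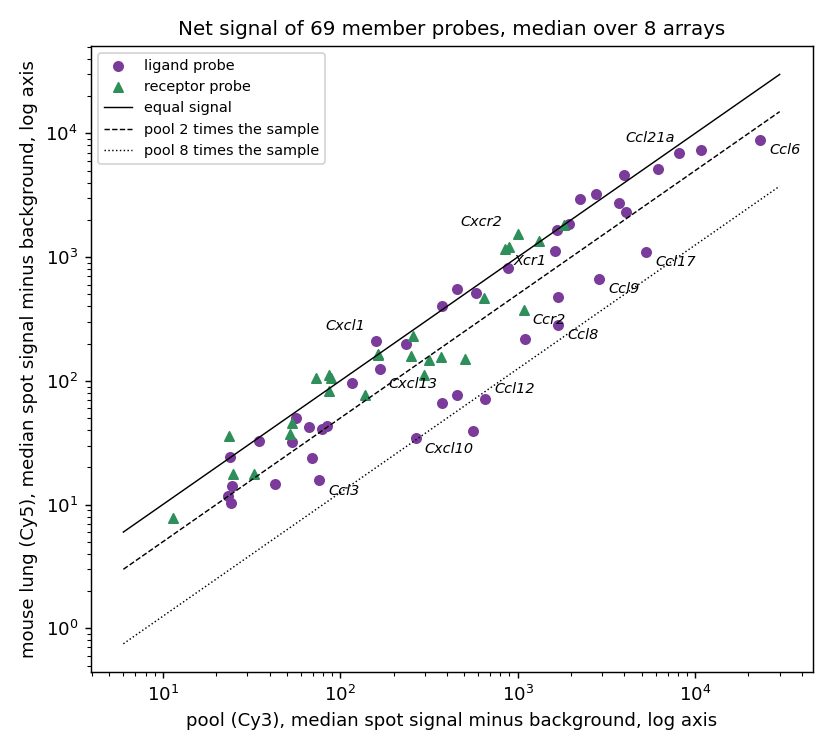
Each point is 1 of 69 member probes, with the net Cy3 signal of the pool on the horizontal and the net Cy5 signal of the mouse lungs on the vertical axis, both log axes and both medians over 8 arrays before any normalization, and lines mark equal signal and a pool 2 and 8 times the sample. Ccl12 and Cxcl10 lie by the line of 8 times, and the brighter Cxcr2 probe, which carries the name, lies above the line of equal signal.

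Of the homeostatic ligands 4 of 11 probes were below the pool, 2 above it and 5 not past the threshold, beside 28.2% of all probes below and 28.7% above. Cxcl13, the ligand of Cxcr5 that draws B cells into follicles, was at -1.24, -1.90, -1.81 and -2.01 on the wild-type arrays and -0.40, -1.68, -1.89 and -2.71 on the transgenic arrays. The transgenic values ran from the highest to the lowest of all 8 arrays, and the mean was -1.70 ± 0.19 (SE, adjusted p = 2.64e-05). Cxcr5 had a mean of -0.19 (adjusted p = 0.0468), a call lost in 12 of 22 alternatives. Ccl19, which guides Ccr7-bearing T cells and dendritic cells, was at 0.49, 0.34 and 0.36 on the wild-type arrays other than replicate 2 and 1.27, 0.28, 0.39 and 0.33 on the transgenic arrays. All 7 arrays with a value were above the pool with this probe, whose mean was 0.48 ± 0.11 (SE, adjusted p = 0.00358), and the second probe was at 0.21 (adjusted p = 0.170), with 1.34 on transgenic replicate 1 and -0.24 to 0.16 on the other 7 arrays. Without transgenic replicate 1 the mean of the first probe was 0.37. The probe of Ccl21a was at -0.067 (adjusted p = 0.636), and this value is uncertain since near-identical Ccl21 copies may share the probe. Ccr7 was at -0.77, -1.06, -1.54 and -1.02 on the wild-type arrays and -0.67, -0.35, -0.74 and -1.29 on the transgenic arrays, below the pool on all arrays, with a mean of -0.93 ± 0.10 (SE, adjusted p = 2.14e-05).

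Cxcl12, the ligand of Cxcr4 that holds progenitors and lymphocytes in tissue, gave unlike values with its 2 probes. The brighter probe, designed on transcript variant 3, was at -0.046 (adjusted p = 0.704), with a net Cy5 signal of 2784 to 8976 against a net Cy3 signal of 4264 to 7725. The dimmer probe, designed on transcript variant 1, was at -1.74, -1.37, -1.78 and -1.77 on the wild-type arrays and -1.08, -1.34, -1.75 and -1.98 on the transgenic arrays, with a mean of -1.60 ± 0.092 (SE, adjusted p = 1.71e-07) and a net Cy5 signal of 53.0 to 113 against a net Cy3 signal of 254 to 490. Cxcr4 was at 0.090 (adjusted p = 0.136) with the brighter probe and 0.26 (adjusted p = 0.00175) with the other. Cxcr7, an atypical receptor that scavenges Cxcl12, was at -0.76, -0.87, -1.26 and -0.41 on the wild-type arrays and -1.08, -0.52, -0.39 and -0.41 on the transgenic arrays. All arrays were below the pool, and the mean was -0.71 ± 0.097 (SE, adjusted p = 1.06e-04). Cxcl14 was at -0.32 (adjusted p = 9.95e-04), below the pool on all 8 arrays, with a net Cy5 signal of 5403 to 11592 against a net Cy3 signal of 8322 to 14012. The remaining homeostatic ligands were Ccl25 at 0.18 and -0.24, Ccl27a at 0.19 and Ccl28 at -0.079, of which the dimmer Ccl25 probe and Ccl27a passed (adjusted p = 0.00710 and 0.00714). Ccl27a also has a close copy in the mouse genome, so that its value is uncertain.

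Of the 5 neutrophil-attracting ligands Cxcl3 was not well above background in any sample, and its call below the pool is not read. Cxcl1, which binds Cxcr2 on neutrophils, was at 1.37, 0.17, 0.47 and 0.79 on the wild-type arrays and 0.76, 0.48, 0.55 and 0.27 on the transgenic arrays. Wild-type replicate 1 was the highest, all 8 arrays were above the pool, and the mean was 0.61 ± 0.11 (SE, adjusted p = 6.86e-04). Cxcl2 was at 0.079 (adjusted p = 0.237) and Cxcl15, a ligand made by lung epithelium, at 0.099 (adjusted p = 0.491), with array values of -0.65 to 0.58. Cxcl5, another epithelial product, was below the pool at -0.32 (adjusted p = 0.00154), with 5 samples above background, and at -1.81 with Agilent's processed signals. The brighter probe of Cxcr2 was at 0.46, 0.70, 1.00 and 1.16 on the wild-type arrays and 0.86, 0.83, 0.82 and 0.93 on the transgenic arrays, with a mean of 0.84 ± 0.071 (SE, adjusted p = 3.21e-06). Its dimmer probe, designed on the same transcript, was at -0.49, -0.50, -0.48 and 0.065 on the wild-type arrays and 0.59, -0.53, -0.53 and -0.54 on the transgenic arrays, with a mean of -0.30 (adjusted p = 0.0518). With this second probe, transgenic replicate 1 and wild-type replicate 4 were above 0 and the other 6 arrays lay at -0.48 or below. The same 2 arrays had the highest means of the neutrophil marker probes, 0.64 and -0.083, whose part in the Cxcr2 values was not tested.

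The ligands Cx3cl1 and Cxcl16, which are anchored in the membrane, stood on opposite sides of the pool by their brighter probes. Cx3cl1, expressed by endothelium and epithelium, was above it with the brighter probe at 0.52 ± 0.066 (SE, adjusted p = 6.74e-05) and at -0.025 (adjusted p = 0.759) with the dimmer one, which was designed on another sequence record. Its receptor Cx3cr1, on patrolling monocytes, was below the pool with both probes, at -0.44 and -0.90 (adjusted p = 0.00189 and 2.87e-05). Cxcl16 was below the pool with both probes, at -0.71 and -0.34 (adjusted p = 4.39e-05 and 7.89e-04), as was its receptor Cxcr6 at -0.35 (adjusted p = 0.00391). Xcl1, the C chemokine of natural killer and CD8 T cells, was at -0.45 (adjusted p = 3.95e-05). Xcr1, its receptor on cross-presenting dendritic cells, was at 1.04, 0.44, 0.65 and 0.63 on the wild-type arrays and 1.21, 0.56, 0.59 and 0.41 on the transgenic arrays, all above the pool, with a mean of 0.69 ± 0.090 (SE, adjusted p = 7.41e-05). The second Xcr1 probe was also above the pool, at 0.41 (adjusted p = 1.93e-04). Cxcl17, a mucosal chemokine, was at -0.22 (adjusted p = 0.0628). Of the lymphocyte receptors not yet given, Ccr9 was at 0.15 (adjusted p = 0.0495) and Ccr10 at 0.045 (adjusted p = 0.639), and the neutrophil receptor Cxcr1 was above background in 2 samples.

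Over the receptors, 5 of 12 probes of myeloid cell receptors were below the pool and 4 above it, and of lymphocyte and dendritic cell receptors 4 of 13 were below and 5 above, beside 28.2% of all probes below and 28.7% above. The call of Ccr8 among the 4 came through the pool channel. For 14 of the 15 genes with 2 probes both probes could be tested against the pool. In 6 genes both passed on the same side, in 8 a single probe passed, and in no gene did both pass on opposite sides. The probes differed by more than 1 in log2 units for Cxcl12 and Cxcr2, by 0.73 for Ccl24 and by 0.54 for Cx3cl1.

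Many chemokine genes stand side by side on the chromosomes, so members were also set in the gene order of RefSeq (GRCm38.p6), and levels near the pool and far below it were found in the same groups. On chromosome 11, Ccl2, Ccl7, Ccl11, Ccl12, Ccl8 and Ccl1 follow each other with no other protein-coding gene between them. Ccl11 at -0.22 lay between Ccl7 at -1.92 and Ccl12 at -2.16, and Ccl1 at -0.45 next to Ccl8 at -2.02. In the second group of that chromosome Ccl5 at 0.36 adjoined Ccl9 at -1.76, with Ccl6, Ccl3 and Ccl4 beyond. On chromosome 9 the receptor genes Ccr1, Ccr1l1, Ccr3 and Ccr2 are consecutive. The first 3 of them were at 0.11, 0.33 and 0.35, and Ccr2 was at -1.16. On chromosome 8, Cx3cl1 at 0.52 stood directly between Ccl22, dim in all samples, and Ccl17 at -2.01. Other neighbours were close or both low, such as Ccl2 at -1.45 beside Ccl7, Ccl12 beside Ccl8, and Ccl9 beside Ccl6 at -1.15. The values are the brightest probe's mean log2 ratios, each with its own test against the pool above, and no test was made between neighbours.

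**Figure D4:**
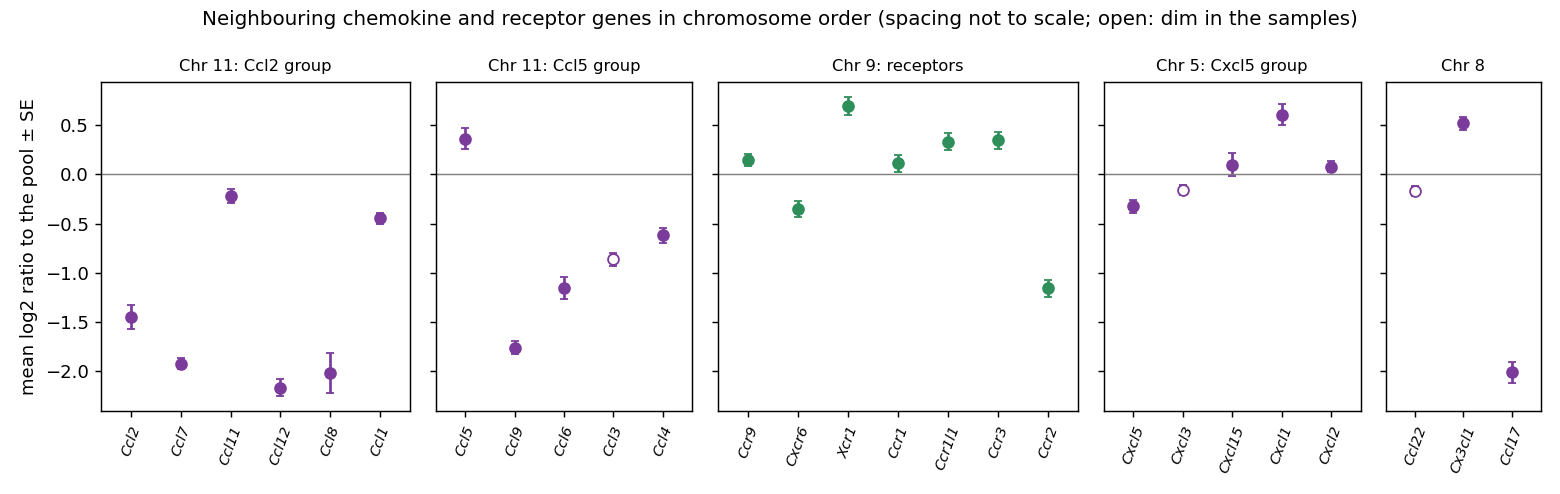
The vertical axis gives the mean log2 ratio to the pool with its standard error for the brightest probe of each gene, and the horizontal axis the gene order in 5 groups of neighbouring members on chromosomes 11, 9, 5 and 8, with open points where the samples were well above background on fewer than 4 arrays. Genes far below the pool, such as Ccl12, Ccr2 and Ccl17, stand beside genes near or above it, such as Ccl11, Ccr3 and Cx3cl1.

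Between the genotypes no member passed the adjusted threshold, and at an unadjusted p under 0.05 Cx3cl1 and Cxcr4 had higher values in the transgenic lungs. Ccl4 also fell under this threshold, but it entered the test through the transgenic group and nothing is read from it. Limma was fitted to the 32653 probes well above background in the samples on at least 4 arrays with at least 2 values per genotype, among them 62 member probes. The adjusted count was 0 of 62 members and 0 of all probes, and at an unadjusted p under 0.05 it was 3 of 62 (4.84%), Ccl4 included, against 2.09% of all probes, and those higher in the transgenic group were these 3 against 1.12% of all probes. The methods' t-test called 3 member probes and 866 of all 32653 probes, and 0 after adjustment. Of the 62 member probes 44 (71%) had the higher mean in the transgenic group, against 50.4% of all probes. The 44 include Ccl4 and Cxcl10, each well above background in 2 wild-type and 4 transgenic samples. They also include Ccl20 and Cxcl5, each above it in 2 wild-type and 3 transgenic samples. Of the 62 member probes 55 had a value on every array. Their mean log2 ratio was -0.47, -0.50, -0.57 and -0.45 on the wild-type arrays and -0.22, -0.34, -0.45 and -0.58 on the transgenic arrays. Transgenic replicates 1 and 2 were the highest of the 8 arrays and transgenic replicate 4 the lowest. The B cell marker probes were higher in the transgenic mean in 7 of 8 cases and the T cell marker probes in 9 of 11, both with their highest array mean on transgenic replicate 1, and their part in this share was not tested. Without wild-type replicate 2 or 3 the count of members with an unadjusted p under 0.05 was 0, without transgenic replicate 1 or 2 it was 1, without wild-type replicate 4 it was 8 and without transgenic replicate 4 it was 7. Blocking on the slide gave a count of 5, Ccl4 and Cxcl5 included, with Ccr7 (unadjusted p = 0.0195 in limma) and Cxcr5 (0.0230) and without Cxcr4. Cxcl5 was well above background in 2 wild-type and 3 transgenic samples, so its call is not read either. The share of all probes is not given for these fits, so their counts are not read as a result about the members. The median difference was 0.096 over the members and 0.00100 over all probes.

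Cx3cl1 had log2 ratios of 0.35, 0.15, 0.20 and 0.67 on the wild-type arrays and 0.80, 0.61, 0.51 and 0.83 on the transgenic arrays. Wild-type replicate 4 lay within the transgenic range, and the means were 0.34 ± 0.23 in wild-type and 0.69 ± 0.16 in transgenic lungs (SD, n = 4 and 4). The difference was 0.34 ± 0.13 (SE) with an unadjusted p of 0.0247 in limma and 0.0857 by an exact permutation test of 4 against 4, two-sided, for which 0.0286 is the smallest p possible. The dimmer Cx3cl1 probe had a difference of -0.17 (unadjusted p = 0.220 in limma). Within the 4 slides the brighter probe's difference was 0.63, 0.45, 0.46 and -0.16, and within the 2 scan days 0.54 and 0.15. Blocking on the slide gave 0.34 (unadjusted p = 0.0314 in limma), and blocking on the replicate number gave an unadjusted p of 0.00984 in limma. The call was lost without wild-type replicate 2 or 3 or transgenic replicate 1 or 4, with values of 0.28 to 0.31. It passed in 13 of 21 alternatives, with a range of 0.23 to 0.45. The call was also lost from the sample channel alone, at 0.23 (unadjusted p = 0.181 in limma), and with median-centring, at 0.26 (0.133). With Agilent's processed signals and with the authors' matrix the difference was 0.37 (unadjusted p = 0.0552 and 0.0551 in limma). The blood endothelial marker probes had array means of -0.15 to 0.52 in wild-type and 0.34 to 0.67 in transgenic lungs. Of these probes 4 of 5 were higher in the transgenic group, beside 50.4% of all probes. The lung epithelial marker probes were lower in the transgenic mean in 6 of 6 cases, with a median difference of -0.52. The part of either list in the Cx3cl1 difference was not tested.

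Cxcr4, the receptor of Cxcl12 on most leukocytes, had log2 ratios of 0.064, -0.017, -0.19 and 0.058 on the wild-type arrays and 0.19, 0.15, 0.18 and 0.29 on the transgenic arrays. The groups did not overlap, which held for 1 of the 62 member probes in this direction and for 1.07% of all probes, and the means were -0.022 ± 0.12 in wild-type and 0.20 ± 0.061 in transgenic lungs (SD, n = 4 and 4). The difference was 0.22 ± 0.098 (SE, unadjusted p = 0.0435 in limma, exact permutation p = 0.0286). The second probe gave a like difference of 0.23 (unadjusted p = 0.0538 in limma) with overlapping groups. The difference was positive within each of the 4 slides, from 0.12 to 0.48, and within both days, 0.30 and 0.14. It passed in 8 of 21 alternatives, and of the 8 arrays only wild-type replicates 1 and 4 could be left out without losing the call. From the sample channel alone it was 0.052 (unadjusted p = 0.821 in limma), and when blocked on the slide its unadjusted p in limma was 0.0570. The marker probes of B cells, which carry Cxcr4, had array means of -0.56 to 0.0035 in wild-type and -0.28 to 0.39 in transgenic lungs. Of these probes 7 of 8 were higher in the transgenic group, beside 50.4% of all probes, and none was at background. Their part was not tested.

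Ccl4, an attractant of macrophages and T cells, had log2 ratios of -0.75, -0.73, -1.12 and -0.58 on the wild-type arrays and -0.47, -0.26 and -0.61 on the transgenic arrays other than replicate 3, whose spot was flagged as an outlier and left out. Above background were 2 of the wild-type and 4 of the transgenic spots, that of replicate 3 included, with a net Cy5 signal of 10.5 to 41.0 against a net Cy3 signal of 51.0 to 87.0. The probe thus reached the test through the transgenic group, where it was higher, and its difference is not read as a result. When signal above background was required on all 8 arrays Ccl4 was not tested and the count of members with an unadjusted p under 0.05 was 2. The means were -0.79 ± 0.23 in wild-type and -0.44 ± 0.18 in transgenic lungs (SD, n = 4 and 3), and the groups overlapped. With the flagged spot kept, or with normexp fitted on all spots, the unadjusted p was no longer under 0.05.

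**Figure D5:**
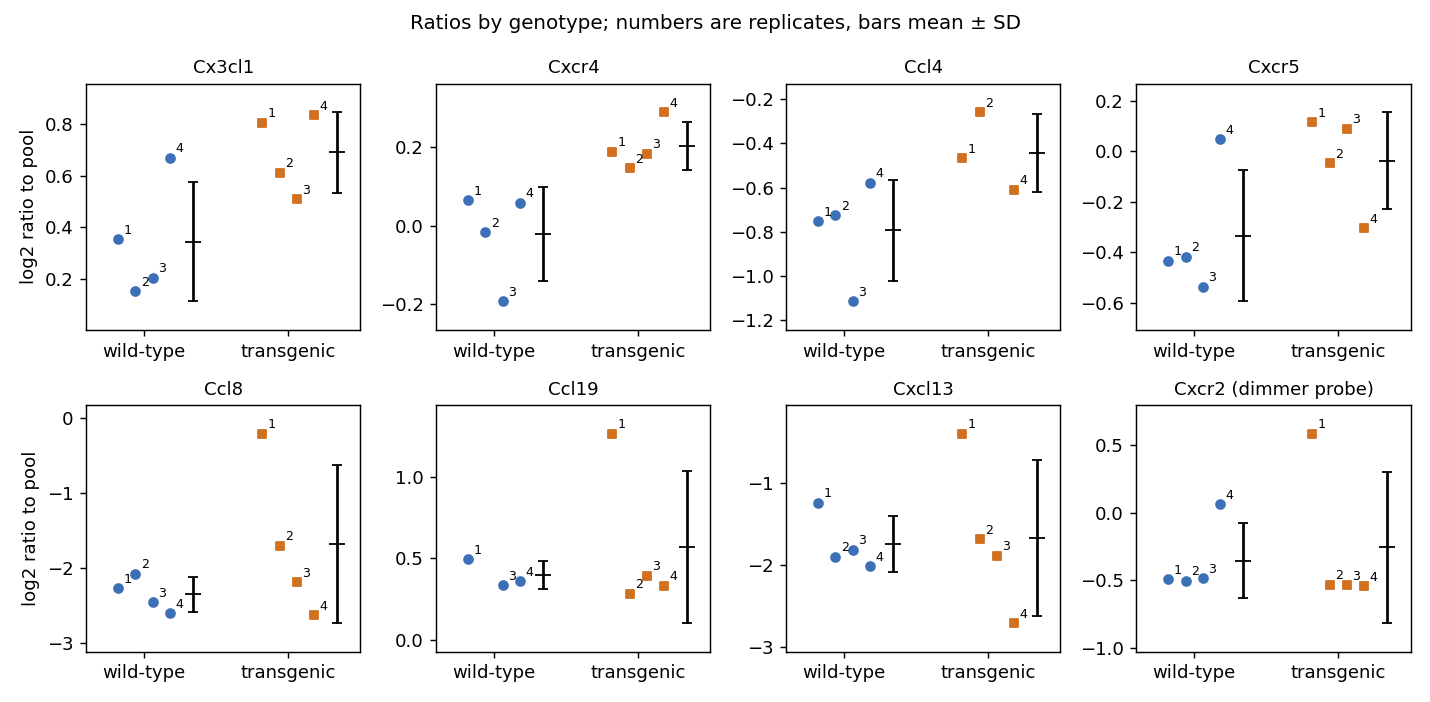
The log2 ratio to the pool is plotted for 8 probes by genotype, with the replicate number beside each array's point and the mean ± SD beside each group, and each panel has its own vertical scale. In the upper row the transgenic group is shifted upward with overlap in all but Cxcr4, and in the lower row transgenic replicate 1 stands above the other arrays.

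Other members did not pass the unadjusted threshold. By the brightest probe, the largest positive difference of all members was 0.67 for Ccl8 (unadjusted p = 0.124 in limma). After Ccl4 and Cx3cl1 followed 0.34 for Cx3cr1 (unadjusted p = 0.0896 in limma) and 0.33 for Ccr7 (unadjusted p = 0.127 in limma). Without transgenic replicate 4 the Ccl8 difference was 0.98 (unadjusted p = 0.0234 in limma), and without transgenic replicate 1 it was 0.18. Without transgenic replicate 4 the Cx3cr1 difference was 0.44 and that of Ccr7 0.51 (unadjusted p = 0.0392 and 0.0162 in limma). That array had the lowest mean of the member probes of all arrays, so the p-values without it are not read as a result. The Cx3cr1 difference was 0.19 without transgenic replicate 1 and 0.22 without wild-type replicate 1, and that of Ccr7 was 0.19 without wild-type replicate 3 and 0.20 without transgenic replicate 2. The dimmer Cx3cr1 probe was at -0.062. On the negative side were Cxcl1 at -0.19, Ccl9 at -0.14, Ccl2 at -0.11, Ccl6 at -0.072 and Ccl27a at -0.062, with unadjusted p of 0.304 to 0.756 in limma. These 5, all ligands, were the largest of 14 negative differences among the 48 brightest probes tested, and the others, which include the receptors Cxcr3 at -0.046, Ccr9 at -0.041, Ccr1l1 at -0.039 and Ccr6 at -0.0087, lay nearer to 0. The Ccl2 and Cxcl1 differences turned positive, at 0.095 and 0.036, without wild-type replicate 1. With 1 array left out the difference ranged from -0.25 to 0.076 for Ccl6, from -0.10 to 0.0013 for Ccl27a and from -0.32 to 0.095 for Ccl2. Within the 4 slides the Ccl2 difference was -0.16, -0.076, -0.061 and -0.13, negative in each, and the arrays of the first replicates, which share a slide, were both high. Cxcr5, on B cells, was higher in the transgenic mean by 0.30 (unadjusted p = 0.0646 in limma). The difference of 0.27 for Cxcl5 is not read as a result, since its probe was well above background in 2 wild-type and 3 transgenic samples. The difference was 0.10 for the receptor Ccr2, which was far below the pool, and for the low ligands Ccl12, Ccl7 and Ccl17 it was 0.12, 0.094 and -0.010.

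Members varied widely between arrays of the same genotype. The pooled SD within genotypes had a median of 0.29 over the 62 tested member probes and 0.18 over all probes, and 19 members (30.6%) were among the 10% of all probes with the largest SD. By the brightest probe, the widest were Ccl8 at 0.76, Cxcl13 at 0.72, Ccl2 at 0.45, Cxcl15 at 0.42 and Ccl6 at 0.40. Without transgenic replicate 1 the SD was 0.34 for Ccl8 and 0.44 for Cxcl13. The Ccl2 values followed the slide, high on both arrays of the first replicates and low on both of the second, so that mouse and slide cannot be told apart in its spread. Among the brightest probes tested the SD was smallest for Cxcr4 at 0.095, followed by Ccl27a at 0.11. Transgenic replicate 1 had the highest ratio of all 8 arrays for 21 of the 55 member probes measured on every array (38.2%), against 22.7% of all probes. Among them were Ccl8, Ccl19, Cxcl13, Ccl20, Ccr6 and Cxcr6. The mean over these 55 probes was -0.22 on this array and -0.58 to -0.34 on the other 7. Its B cell marker mean of 0.39 and neutrophil marker mean of 0.64 were also the highest of the 8 arrays, and their part in these values was not tested.

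Other genes of the pathway were read from lists of atypical receptors, chemokines with other names and downstream signalling genes. Of the signalling probes 31 of 61 were below the pool and 12 above it at an adjusted p under 0.05 in limma, beside 28.2% and 28.7% of all probes, with a median of -0.20. Low ones included Vav1, an exchange factor for Rac in leukocytes, at -1.24 and -0.999 with its 2 probes, Rac2 at -0.84 and -0.73, and Pik3cg, the kinase that chemokine receptors activate through G proteins, at -0.79. Dock2, needed for lymphocyte migration, was at -0.38 and -0.74. Elmo1, its partner, was above the pool at 0.53 with 1 of 3 probes and below it at -0.20 with another. Between the genotypes 1 of 60 signalling probes had an unadjusted p under 0.05, against 2.09% of all probes, for Cdc42, at a difference of 0.23 with 1 of its 3 probes. Of the 6 probes for atypical receptors outside the name pattern 1 was below the pool and 2 above it. Darc, the Duffy receptor of red cells and venules that binds many chemokines, had a transgenic minus wild-type difference of -0.53 with 1 probe, measured on 2 wild-type and 3 transgenic arrays (unadjusted p = 0.0161 in limma), and -0.18 with the other (unadjusted p = 0.135 in limma), and stood at 1.18 and -0.43 relative to the pool with the same probes. Among Pf4, Ppbp and Cklf, with 4 probes, none had an unadjusted p under 0.05 between the genotypes, and Ppbp was above the pool at 0.71.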

How the data were processed

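Whole lungs of 4 wild-type and 4 Scgb3a2-transgenic mice were each hybridized once on a 2-color Agilent whole mouse genome array, with the mouse in Cy5 and the pool in Cy3. The precision is set by the number of arrays. The authors deposited scanner output, with median signal intensity and local background of each spot and processed signal intensity, background-subtracted and dye-normalized by Feature Extraction (version 11.0.1.1 in the submitters' processing notes, 10.10.1.1 in the file headers). The deposited LogRatio column is the log10 of processed Cy5 over Cy3. The authors also deposited an annotated matrix of log2 ratios, processed in GeneSpring, for 40052 probes. Its gene symbols chose the members.

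From the median signals, spots flagged as outliers and control spots were left out, background was corrected with normexp (offset 50), each array's ratios were adjusted by loess, and replicate spots were averaged, giving 41174 probes. Limma 3.58.1 in R 4.3.3 compared the genotypes and the mean of the genotype means with the pool, with Benjamini-Hochberg adjustment over all probes tested. Probes entered the genotype test when well above background in Cy5 on at least 4 arrays with at least 2 values per genotype, and the pool test when so in either channel on at least 4 arrays. The genes with values were those of the named ligand-receptor axes, those with an unadjusted p under 0.05 or separate groups, the largest differences, the furthest from the pool and the widest between mice. Each gene was given by its brightest probe. A single member gene enters the counts but is not reported here. Most alternatives changed 1 choice. Agilent's processed signals and the authors' matrix changed background correction and normalization together, plain subtraction the background and the filter, and keeping outlier spots also the normexp fit. The members, lists and tests were chosen with earlier results of these data known. The scripts were tested on simulated data. The main fit did not treat the replicate numbers as pairs. Same-numbered arrays correlated at 0.32, 0.25, -0.079 and -0.21 in their deviations from the group means. Only replicates 1 and 2 shared a slide, so these values cannot show whether the mice were paired. Arrays of 1 slide correlated at 0.32, 0.25, 0.30 and 0.068.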

Additional observations from a re-analysis of the deposited data

Results flagged for a closer look

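In 3 of 87 groups of 4 values among the members given by their brightest probe, 1 array stood apart from the other 3 by Dixon's criterion, which chance passes in about 1 in 20 groups. Ccl19, a guide of T cells and dendritic cells, was at a log2 ratio of 1.27 on transgenic replicate 1, the highest of the transgenic arrays. Cxcl14, a homeostatic ligand, was at -0.70 on wild-type replicate 2, the lowest of the wild-type arrays. Ccr3, the eosinophil receptor, was at 0.72 on wild-type replicate 3, the highest of the wild-type arrays.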

How the results depend on the processing

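The number of arrays and the signal above background limit these values, most for the dim probes. The count of members with an unadjusted p under 0.05 between the genotypes was 3, and became 1 from the sample channel alone, 1 with median-centring in place of loess and 5 with the slide as a block, and ranged from 0 to 8 with 1 array left out. The share of all probes is not given for these alternatives, so their counts are not read as a result about the members. With the replicate number as a block (replicate block) it was 2, the counts below and above the pool were 33 and 15, and the Scgb3a2 difference was 0.88. The adjusted count was 0 in every alternative run. The count of members at least 2-fold below the pool was 14, and became 27 with Agilent's processed signals and with the authors' matrix. The counts below and above the pool ranged from 25 to 36 and from 11 to 16. For these counts the share of all probes is given only for the main fit and the filter on the sample channel. The other counts, those of the replicate block included, are therefore not read as a result about the members. Keeping outlier spots also put them into the normexp fit. Of 230 recomputed genotype differences 29 lost and 4 gained a call, and of 950 recomputed pool ratios 24 lost and 10 gained one. No called value turned its direction. Uncalled values changed sign in 7 and 21 cases. The cause of these changes was not tested.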

Other observations

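Marker lists of the cell types that make or receive these signals were read in the same fits. The probes of lung epithelium were lower in the transgenic mean in 6 of 6 cases, 2 with an unadjusted p under 0.05 in limma, with a median difference of -0.52. Adipocyte probes were lower in 5 of 5 (1 with an unadjusted p under 0.05) and platelet probes in 4 of 4 (0). An unadjusted p under 0.05 was also found for 2 of 4 striated muscle, 2 of 8 fibroblast, 2 of 8 B cell, 1 of 11 macrophage and 1 of 5 blood endothelial probes, and for 0 in the other lists. Of all probes tested 2.09% had such a p, and 50.4% had the higher mean in the transgenic group. The transgenic mean was higher for 9 of 11 T cell, 4 of 6 natural killer cell, 5 of 10 dendritic cell, 5 of 11 macrophage, 5 of 9 neutrophil, 2 of 5 lymphatic endothelial, 5 of 8 fibroblast and 2 of 4 striated muscle probes. Relative to the pool, 6 of 8 fibroblast probes were below at an adjusted p under 0.05, with a median of -0.79, and so were 5 of 10 dendritic cell, 4 of 9 neutrophil and 6 of 13 T cell probes. Of all probes 28.2% were below and 28.7% above. Above the pool were 5 of 6 lung epithelial, 4 of 5 blood endothelial, 4 of 5 adipocyte and 3 of 4 platelet probes, with 0 below in each list. Their part in the chemokine values was not tested.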
